A study of Mus musculus with 20 samples.

Results

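Pioglitazone-treated db/db liver was compared with wild-type liver to describe what still differed from, or lay beyond, the wild-type state at the end of treatment. The comparison used 8 of the 20 samples of the series, taken by their labels: the 4 libraries labelled model_PGZ, from db/db mice given pioglitazone (PGZ) at 20 mg/kg for 12 weeks, and the 4 labelled normal, from C57BL/6J wild-type mice given saline. db/db mice carry a mutation of Lepr, the leptin receptor gene, eat in excess and become obese and diabetic. Saline-treated db/db mice (model, 4 libraries) are given only as side values. The groups compared differ in genotype and in drug together, and the labels do not give the sex of the mice, the strain that carries the db mutation or whether animals shared a cage or batch. Genotype, background and drug therefore cannot be told apart in these values, and the p-values measure the spread between these libraries.

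Pioglitazone is a thiazolidinedione that binds and activates the nuclear receptor PPAR-gamma, which pairs with RXR on DNA and switches on genes of fatty acid uptake, storage and lipid droplet coating. The receptor is abundant in fat tissue and scarce in healthy mouse liver, where its relative PPAR-alpha drives fatty acid oxidation. In steatotic liver PPAR-gamma becomes more abundant, and the liver then carries lipid droplet genes otherwise seen mainly in fat. Mouse liver also differs strongly between the sexes, through the pulsed or continuous pattern of growth hormone and the factors STAT5B, BCL6 and CUX2.

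Total counts per library ranged from 16922833 to 21622959 in wild-type and from 19332589 to 22415530 in PGZ libraries. Levels are CPM, a gene's reads relative to the TMM-scaled total of its library, so a gene's level can be compared between libraries but not with the level of a longer or shorter gene. In CPM, 3 reads over the whole group amount to 0.0412 for wild-type and 0.0336 for PGZ libraries, a floor that covers counting error only, since PCR copies are not independent molecules. The first principal component of the 8 libraries held 62% of the variance and separated the groups, with wild-type libraries at 44 to 63.1 and PGZ libraries at -64.4 to -34.3. The library normal_376 stood apart on the second component (13.7% of the variance), at -53.6 against 18.8 to 24 for the other wild-type libraries. Among PGZ libraries model_PGZ_328 lay nearest to wild type on the first component and carried high acute-phase and neutrophil RNA, described with those genes below. Mitochondrially encoded genes took 17.2 to 22.2% of reads in wild-type and 12.2 to 18% in PGZ libraries.

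Of 14739 genes tested, 4363 (29.6%) were called different at an adjusted p under 0.05 by the quasi-likelihood test of edgeR (Benjamini-Hochberg adjustment), which gives every adjusted p below. With PGZ 2215 genes were higher (15.0%) and 2148 lower (14.6%), and the median log2 fold change of all genes tested was 0.03. At least 4-fold differences were called for 530 higher and 202 lower genes, and at least 16-fold differences for 95 higher and 57 lower genes. The 4 PGZ libraries all lay above the 4 wild-type libraries for 2531 genes (17.2%) and all below for 2368 (16.1%). With upper-quartile scaling the split moved to 2628 higher and 1623 lower. When the spread was estimated over all 4 analysed groups in a single fit, 968 genes were called higher and 958 lower, 12.2% of 15744 tested. List counts below are read against 15.0% higher and 14.6% lower. List counts in the fit of all groups are read against 12.2% in both directions together. Calls were spread over the chromosomes, from 25.1% of genes tested on chromosome 16 to 33.5% on chromosome 19.

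**Figure D1:**
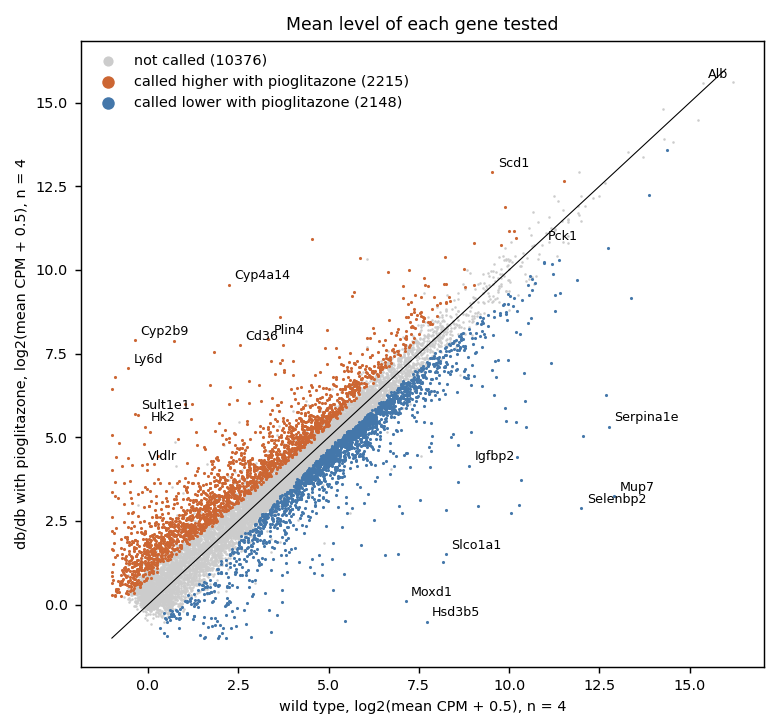
Mean level of each of the 14739 genes tested in wild-type (horizontal axis) and pioglitazone-treated db/db liver (vertical axis), as log2(mean CPM + 0.5) over 4 libraries each, with the diagonal marking equal levels. Orange points (2215) were called higher and blue points (2148) lower with pioglitazone. The lower right holds Selenbp2, Mup7, Serpina1e and Hsd3b5, which were abundant in wild-type liver and far lower with pioglitazone.

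Lepr RNA was at 1.49 to 2.15 CPM in wild-type and 4.3 to 7.94 CPM in PGZ libraries (adjusted p = 0.0024, log2 fold change 1.62 with an SE of 0.29, n = 4 in each group). The counts sum all transcripts of the gene, and the mutation itself cannot be read from this level. Pparg, the gene of the receptor that the drug binds, was at 6.54, 6.28, 4 and 5.89 CPM in the wild-type libraries and at 17.5, 24.3, 20.2 and 20.1 CPM in the PGZ libraries. The groups did not overlap (log2 fold change 1.86, SE 0.19, adjusted p = 0.0001), and saline-treated db/db libraries lay between them at 11.3 to 17 CPM. Among 18 genes of PPAR and RXR receptors and their coregulators, Pparg alone was called higher and 7 were lower (38.9%, against 14.6% of all genes). Their median log2 fold change was -0.37. The lower ones included the coactivator genes Ppargc1b (9.61 to 3.26 CPM, log2 fold change -1.56) and Ncoa3 (39.5 to 26.9 CPM, -0.55). Rxra, the partner receptor, fell from 297 to 205 CPM (log2 fold change -0.53, adjusted p = 0.027). In the fit of all groups 1 gene of the list was called lower, none of the 3 just named among them, and 4 were lower without model_PGZ_360, model_PGZ_404 or model_PGZ_408. The call of Rxra was kept in 4 of 8 fits that left out a library.

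Genes of PPAR-gamma and the lipid droplet were higher as a group. Of 25 tested, 19 were called higher (76%, against 15.0% of all genes) and 0 lower. Their median log2 fold change was 1.86 against 0.03 over all genes. Cidea encodes a lipid droplet protein found mainly in brown fat, and its RNA stood at 112, 163, 93 and 76.8 CPM in PGZ libraries. In wild-type liver it had 2 reads in 1 library and none in the others, so the ratio of the groups was 4100 with a 95% counting interval of 1130 to 33900 (adjusted p = 9.1e-07). Its close relative Cidec, which enlarges lipid droplets by fusion, was at 2.98, 4.44, 1.43 and 3.32 CPM in wild-type and 69.8, 236, 240 and 197 CPM in PGZ libraries. The lowest PGZ library, model_PGZ_328, was still far above every wild-type one (log2 fold change 5.94, SE 0.48, adjusted p = 3.6e-05).

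Of the 5 genes of perilipins, the coat proteins of lipid droplets, 4 were called higher (Plin2, Plin3, Plin4 and Plin5) and Plin1 was too low to be tested. Plin3 and Plin5 were not called in the fit of all groups (adjusted p = 0.27 and 0.064). Plin4, which is typical of fat and muscle (chromosome 17, 56100591 to 56109803, GRCm38), was at 6.43, 11.7, 9.18 and 10.6 CPM in wild-type and rose to a mean of 243 CPM in PGZ libraries, 25.7-fold higher and without overlap (log2 fold change 4.68, SE 0.38, adjusted p = 3.1e-05). Plin2, the main droplet coat of fatty hepatocytes, went from 134 to 573 CPM (log2 fold change 2.09, adjusted p = 0.0016). Plin5, which ties droplets to mitochondria, went from 19.9 to 39.7 CPM (adjusted p = 0.0081). The fatty acid transporter gene Cd36 was at 2.77 to 10.7 CPM in wild-type and 130 to 251 CPM in PGZ libraries (log2 fold change 5.34, adjusted p = 3.9e-05). Fabp4, the fatty acid-binding protein of adipocytes and macrophages, was at 2.47 to 19.3 CPM in wild-type and 50.4 to 129 CPM in PGZ libraries, with no overlap (log2 fold change 3.57, SE 0.64, adjusted p = 0.0043). Fitm1 (lipid droplet formation), Mogat1 (triglyceride assembly from monoacylglycerol), G0s2 (an inhibitor of the lipase ATGL) and Gpd1 (supply of the glycerol backbone) were also higher, with log2 fold changes of 2.89, 6.53, 1.84 and 1.78.

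Defining markers of fat tissue were at or near 0. Adipoq was read at up to 2.22 CPM in wild-type and up to 0.183 CPM in PGZ libraries, Lep had no read with PGZ, and Plin1, the perilipin of white adipocytes, had none with PGZ either. Of 12 adipocyte markers 7 passed the filter on low counts, and 4 of these were higher (Thrsp, Cidec, Fabp4 and Cfd) and Adrb3, the beta-3 adrenergic receptor gene, was lower. Cfd, an adipocyte-secreted complement protease gene, was called (log2 fold change 4.13, adjusted p = 0.045), but only 1 of 8 fits that left out a library kept its call, and normal_349 held 7.69 CPM against at most 0.277 CPM in the other wild-type libraries.

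**Figure D2:**
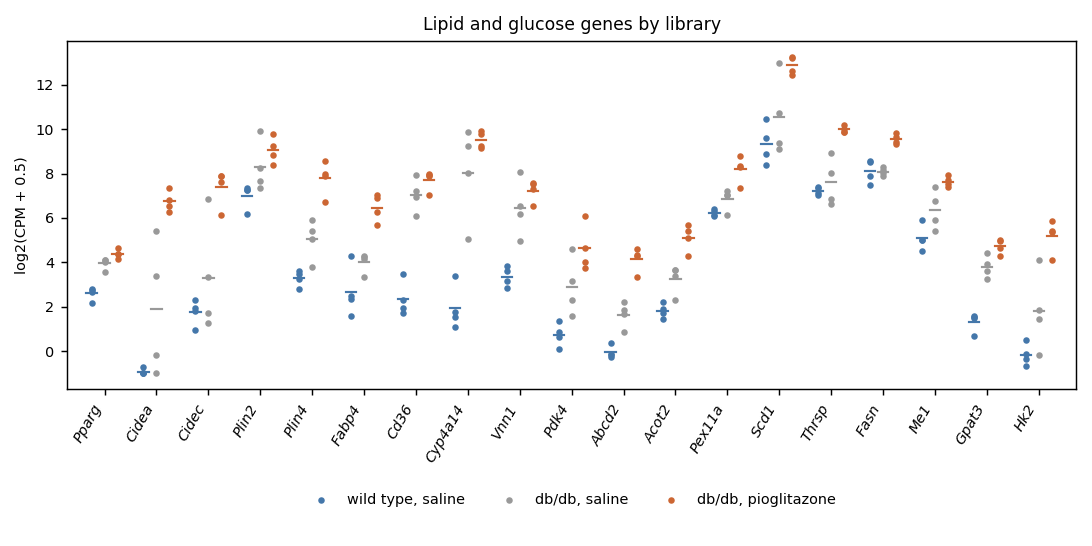
Levels of 19 lipid and glucose genes in single libraries, as log2(CPM + 0.5), with 4 points and a bar at their mean for wild-type (blue), saline-treated db/db (grey) and pioglitazone-treated db/db liver (orange). Pioglitazone libraries lie above all wild-type libraries for every gene shown, and above all saline-treated db/db libraries for genes such as Plin4, Fabp4, Abcd2, Acot2 and Fasn.

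Fatty acid oxidation genes, most of them known targets of PPAR-alpha, were also mostly higher. Of 37 tested, 22 rose (59.5%, against 15.0% of all genes) and 1 fell, with a median log2 fold change of 0.73. The microsomal omega-hydroxylase gene Cyp4a14 was at 2.45, 10, 1.62 and 2.91 CPM in wild-type and 576, 965, 873 and 613 CPM in PGZ libraries (log2 fold change 7.47, SE 0.62, adjusted p = 3.7e-05). Cyp4a10 went from 49.3 to 601 CPM and Vnn1, which encodes the pantetheinase vanin-1, from 10.2 to 154 CPM, both without overlap. Pdk4, which holds back glucose oxidation by inhibiting pyruvate dehydrogenase, went from 1.27 to 30.3 CPM (log2 fold change 4.59, adjusted p = 0.001). Ehhadh and Acaa1b, enzymes of peroxisomal beta-oxidation, rose by 1.92 and 2.01 on the log2 scale. Of the mitochondrial enzymes, Acadm (medium-chain acyl-CoA dehydrogenase) went from 189 to 392 CPM and Hadh (the short-chain hydroxyacyl-CoA step) from 119 to 283 CPM. The hormone gene Fgf21 was at 0.106 to 0.857 CPM in wild-type and 2.1 to 12.9 CPM in PGZ libraries (adjusted p = 0.0016). Cpt1a, the gate of mitochondrial oxidation, stood at 274 and 339 CPM and was not called (adjusted p = 0.23). Ppara itself was at 27.8 and 37 CPM (adjusted p = 0.097). The gene that fell was Creb3l3, a liver transcription factor that works with PPAR-alpha (374 to 218 CPM, log2 fold change -0.78, adjusted p = 0.0055).

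Acyl-CoA thioesterase and peroxisome genes showed 13 of 24 higher (54.2%, against 15.0% of all genes) and 1 lower, with a median log2 fold change of 0.45. Abcd2, a peroxisomal importer of very long-chain acyl-CoA, was at 0.797, 0.325, 0.381 and 0.416 CPM in wild-type and 9.7, 19.1, 23.9 and 19.5 CPM in PGZ libraries, 37.6-fold higher (log2 fold change 5.21, SE 0.37, adjusted p = 1.5e-05). The thioesterase genes Acot2, Acot3 and Acot4 rose from 3.11, 2.82 and 10.4 CPM to 36.3, 93.4 and 71.4 CPM. They lie next to Acot5 on chromosome 12 and are close in sequence, so reads could be shared among them. Acot5 had no read in wild-type libraries and was at 0.686 to 2.04 CPM with PGZ, at least 31.6-fold higher against the floor over the wild-type group. Pex11a, which makes peroxisomes divide, was at 68.2 to 83.3 CPM in wild-type and 163 to 446 CPM in PGZ libraries (log2 fold change 2.04, adjusted p = 0.0005). Acot12, a cytosolic acetyl-CoA thioesterase gene, was lower (125 to 86.4 CPM, adjusted p = 0.022), but was not called in the fit of all groups (adjusted p = 0.3) and kept its call in 6 of 8 fits without a library.

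RNA of fatty acid synthesis genes was mostly higher too, and rates of synthesis or oxidation were not measured. Of 27 genes of fatty acid synthesis and triglyceride assembly, 15 rose and 3 fell (55.6% and 11.1%, against 15.0% and 14.6% of all genes). Their median log2 fold change was 0.79. Scd1, the desaturase that makes oleate, was at 331, 765, 478 and 1390 CPM in wild-type and 9850, 5630, 9450 and 6230 CPM in PGZ libraries (log2 fold change 3.39, SE 0.46, adjusted p = 0.00058). Thrsp, a lipogenic regulator, was at 130 to 170 CPM in wild-type and 930 to 1160 CPM with PGZ (log2 fold change 2.76, adjusted p = 1.8e-05). Fatty acid synthase (Fasn) went from 291 to 762 CPM, acetyl-CoA carboxylase (Acaca) from 73.5 to 127 CPM and ATP citrate lyase (Acly) from 65.6 to 122 CPM, with log2 fold changes of 1.39, 0.79 and 0.90. Me1, a source of NADPH, and the elongase gene Elovl5 rose by 2.46 and 1.87 on the log2 scale. Gpat3, which starts glycerolipid synthesis, was at 1.11 to 2.47 CPM in wild-type and 19.2 to 31.8 CPM with PGZ (adjusted p = 1.8e-05). Of the factors that drive these genes, Srebf1 was at 214 and 264 CPM (adjusted p = 0.28), and Mlxipl, which encodes the glucose-responsive factor ChREBP, was at 1600 and 672 CPM and fell (adjusted p = 0.007, log2 fold change -1.25 with an SE of 0.27). Elovl3, an elongase gene with more RNA in male liver, and the phosphatidate phosphatase gene Lpin1 were lower too (Elovl3 by a log2 fold change of -2.82). Lpin1 was at 69.8 CPM in normal_376 and 24 to 28.5 CPM in the other wild-type libraries, kept its call in 5 of 8 fits without a library, and was not called with upper-quartile scaling (adjusted p = 0.052) or in the fit of all groups (adjusted p = 0.36). Dgat2, which completes triglycerides, differed by a log2 fold change of 0.06 (adjusted p = 0.84).

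Genes of cholesterol synthesis were called higher about as often as all genes, and none was called lower. Of 25, 4 rose (16%, against 15.0% of all genes) and 0 fell (against 14.6%), and the median log2 fold change was -0.12. Acat2, a gene of acetoacetyl-CoA formation, was among the 4 (27.9 to 64.4 CPM). In the fit of all groups, and without normal_346, normal_349, normal_409 or model_PGZ_404, 2 were higher, and without normal_376 and model_PGZ_328 together 4 were higher and 4 lower.

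Glucose-using genes were mostly higher. Of 27 glycolysis and fructose genes 15 rose and 2 fell (55.6% and 7.41%, against 15.0% and 14.6% of all genes). Their median log2 fold change was 0.73, and 8 rose in the fit of all groups. Hk2, the hexokinase of muscle and fat, was at 0.425, 0.921, 0.286 and 0.139 CPM in wild-type and 16.5, 57.9, 42.7 and 40.9 CPM in PGZ libraries, 89.3-fold higher (log2 fold change 6.43, SE 0.51, adjusted p = 3.7e-05). Khk and Ldha, which encode ketohexokinase and lactate dehydrogenase A, rose by 0.93 and 1.60 on the log2 scale. Gckr, which encodes a regulatory protein of glucose phosphorylation in hepatocytes, was 1 of the 2 that fell (550 to 342 CPM, adjusted p = 0.027), with its call kept in 4 of 8 fits without a library. Neither Ldha (adjusted p = 0.051) nor Gckr (0.26) was called in the fit of all groups. Pkm, the pyruvate kinase form outside hepatocytes, went from 8.54 to 31.4 CPM.

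Of 17 genes of gluconeogenesis 4 were higher and 3 lower (23.5% and 17.6%, against 15.0% and 14.6% of all genes), with a median log2 fold change of 0.06. With all groups in the fit 4 were higher and 1 lower. Fbp1 and Pcx, which encode fructose-1,6-bisphosphatase and pyruvate carboxylase, were higher (154 to 413 CPM and 234 to 452 CPM). Pck1, the gene of phosphoenolpyruvate carboxykinase, was at 1930 and 1720 CPM with overlapping groups (adjusted p = 0.55). G6pc, the last step of glucose release, ranged from 40.7 to 374 CPM in wild-type and from 129 to 213 CPM in PGZ libraries (adjusted p = 0.89). Among 20 genes of insulin signalling and IGF binding 2 rose and 4 fell (10% and 20%, against 15.0% and 14.6% of all genes). Igfbp2, a secreted IGF-binding protein, had a mean of 477 CPM in wild-type libraries and was at 4.87, 25.5, 18.5 and 20.3 CPM in PGZ libraries (adjusted p = 7.6e-05, log2 fold change -4.78). Igfbp3 rose from 16.5 to 40.9 CPM (not called in the fit of all groups, adjusted p = 0.2), and Grb14, an inhibitor of the insulin receptor, fell from 77.5 to 45.3 CPM.

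Genes typical of male liver were low with PGZ. All 29 male-biased genes tested were called lower, against 14.6% of all genes, with a median log2 fold change of -4.21. In the fit of all groups 26 were called lower. The list was chosen with earlier results of these data known, so the count only describes its members. Selenbp2, a selenium-binding protein gene (chromosome 3, 94693556 to 94704413), was at 4020, 4040, 4280 and 4090 CPM in wild-type and 4.63, 8.94, 2.62 and 11.4 CPM in PGZ libraries, 594-fold lower (log2 fold change -9.21, SE 0.54, adjusted p = 4.9e-06). Slco1a1, an organic anion transporter of the sinusoidal membrane (chromosome 6, 141907282 to 141946962), was at 338, 335, 231 and 316 CPM in wild-type and 1.17, 2.61, 3.15 and 2.42 CPM in PGZ libraries (log2 fold change -7.02, SE 0.32, adjusted p = 9.1e-07). Cyp7b1, which hydroxylates oxysterols on the alternative route to bile acids, was at 118 to 385 CPM and 4.57 to 8.37 CPM. Hsd3b5, a steroid dehydrogenase gene, was at 82.8 to 263 CPM in wild-type and at most 0.682 CPM with PGZ. Major urinary protein genes fell from high levels: Mup7 was at 801 to 12900 CPM in wild-type and 1.47 to 20.9 CPM with PGZ, and Mup3 at 5290 to 13300 CPM and 330 to 790 CPM. Reads of the Mup, Hsd3b, Cyp2b and Sult families can match several copies, so the division among their members is uncertain. Saline-treated db/db liver held Selenbp2 at 2.46 to 5.49 CPM and Slco1a1 at 0.337 to 20.2 CPM, also below every wild-type library.

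Most female-biased genes tested moved in the opposite direction. Of 31 such genes 23 passed the filter, of which 17 rose and 1 fell (median log2 fold change 3.6). The filter keeps a gene that is high in either group, so this count is not one over all members. The gene that fell was Lifr, given with the growth hormone genes below. The summed level of the list did not separate the groups, at 677 to 1200 CPM in wild-type and 865 to 1170 CPM in PGZ libraries. Sult1e1, which encodes estrogen sulfotransferase, was at 0.372, 0.379, 0.0476 and 0.346 CPM in wild-type and 80.5, 43.7, 36.9 and 43 CPM in PGZ libraries (log2 fold change 7.49, SE 0.42, adjusted p = 4.9e-06). Cyp2b9 was at 0 to 0.857 CPM and 132 to 310 CPM. Cyp2b13 had no read in wild-type libraries and was at 3.56 CPM in model_PGZ_328 and 79.3 to 149 CPM in the other PGZ libraries, at least 2090-fold higher against the floor over the wild-type group, and its adjusted p of 0.016 became 0.063 at most when a library was left out. Cyp17a1, which makes androgen precursors, rose by 3.60 on the log2 scale, and Cux2, a transcription factor of female liver, went from 1.1 to 5.07 CPM (log2 fold change 2.23, adjusted p = 0.005, and 0.23 in the fit of all groups).

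Growth hormone signalling genes were lower in 10 of 17 cases (58.8%, against 14.6% of all genes) and higher in 2 (Cux2 and Lepr). Their median log2 fold change was -0.62. The feedback inhibitors Socs2 (72.1 to 17.9 CPM) and Cish (61.1 to 20.9 CPM), which STAT5 induces, both fell (adjusted p = 0.0019 and 0.014). Bcl6, a repressor that is higher in male liver, was at 88, 97.9, 223 and 61 CPM in wild-type and 27.3, 14.5, 11.1 and 31.8 CPM in PGZ libraries (log2 fold change -2.47, SE 0.45, adjusted p = 0.0037). Igf1 fell from 1110 to 490 CPM and Igfals, the subunit that stabilises circulating IGF complexes, from 164 to 48 CPM. Lifr, the receptor for leukemia inhibitory factor, was at 826, 989, 457 and 801 CPM in wild-type and 90.2, 72.1, 61.5 and 79.6 CPM in PGZ libraries (adjusted p = 2.6e-05, log2 fold change -3.34 with an SE of 0.27). Stat5b was moderately lower (72.6 to 47.2 CPM, adjusted p = 0.0087, and 0.054 in the fit of all groups), and the receptor gene Ghr was called at an adjusted p of 0.049 in this fit and in 1 of 8 fits without a library. Egfr was at 503 to 796 CPM in wild-type libraries, 261 CPM in model_PGZ_328 and 22.7 to 44 CPM in the other PGZ libraries (log2 fold change -2.73, and -4.08 without model_PGZ_328).

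**Figure D3:**
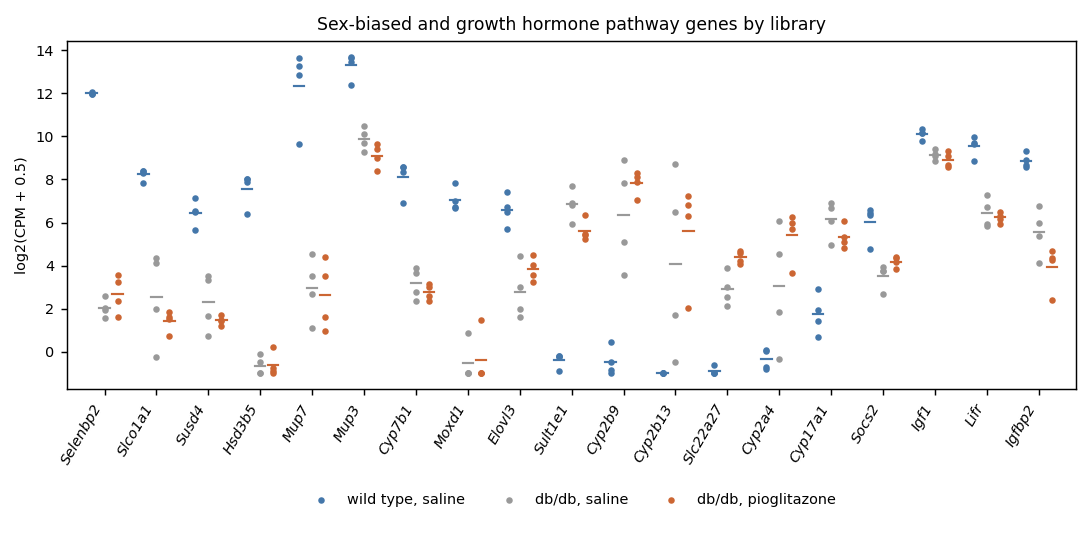
Levels of 19 sex-biased and growth hormone pathway genes in single libraries, as log2(CPM + 0.5), with 4 points and a bar at their mean for wild-type (blue), saline-treated db/db (grey) and pioglitazone-treated db/db liver (orange). From Selenbp2 to Elovl3 the pioglitazone libraries lie below every wild-type library and from Sult1e1 to Cyp17a1 above, on the same side of wild type as the saline-treated db/db libraries for most of the genes.

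Bile acid genes were lower in 13 of 27 cases and higher in 3 (48.1% and 11.1%, against 14.6% and 15.0% of all genes). Their median log2 fold change was -0.53, and 7 were lower in the fit of all groups. Abcb11, the canalicular bile salt export pump, was at 644 to 834 CPM in wild-type and 228 to 323 CPM in PGZ libraries (log2 fold change -1.48, adjusted p = 0.00053). Cyp8b1, which sets the share of cholic acid, fell from 173 to 53.1 CPM (not called in the fit of all groups, where the adjusted p was 0.15), and Nr0b2, the gene of the repressor SHP, from 61.7 to 22.4 CPM. The basolateral exporter genes Abcc4 (0.705 to 13 CPM) and Slc51b (0.148 to 1.56 CPM) were higher. Cyp7a1, the rate-limiting enzyme of bile acid synthesis, ranged from 18.9 to 82.1 CPM in wild-type and 20.4 to 61.9 CPM in PGZ libraries (adjusted p = 0.69). Among 21 xenobiotic receptor and target genes 5 rose and 3 fell (23.8% and 14.3%, against 15.0% and 14.6% of all genes). With upper-quartile scaling 8 rose, and without model_PGZ_360 3. Cyp1a2 fell from 1170 to 280 CPM (adjusted p = 0.00051), and the drug efflux pump gene Abcb1a rose from 1.61 to 11 CPM. Cyp3a11 was at 104 to 777 CPM and 1320 to 2200 CPM (adjusted p = 0.019).

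Antioxidant genes and targets of NRF2 rose in 18 of 34 cases and fell in 3 (52.9% and 8.82%, against 15.0% and 14.6% of all genes). Their median log2 fold change was 0.81, and 11 rose in the fit of all groups. Nqo1, the quinone reductase gene, was at 2.77 to 4.09 CPM in wild-type and 15.5 to 26 CPM in PGZ libraries (log2 fold change 2.69, adjusted p = 2.1e-05). The glutathione transferase gene Gstm3 went from 30.7 to 295 CPM and Gpx4, which reduces lipid peroxides, from 169 to 606 CPM. The pi-class transferase genes Gstp1 (995 to 158 CPM) and Gstp2 (45.3 to 6.11 CPM), close copies with more RNA in male liver, were 2 of the 3 that fell. Nnt, the mitochondrial transhydrogenase gene, was at 31.5 to 43.5 CPM in wild-type and 76.2 to 96.8 CPM in PGZ libraries (log2 fold change 1.14, adjusted p = 0.00052). C57BL/6J mice carry a deletion within Nnt, and the sources used here do not give the strain of the db/db mice.

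Of 33 lipoprotein and hepatokine genes 8 rose and 4 fell (24.2% and 12.1%, against 15.0% and 14.6% of all genes), with a median log2 fold change of 0.06. Without normal_376, and without model_PGZ_328, 7 fell, and without both 10. Apoa1, the main protein of HDL, was at 17300, 12300, 11700 and 19000 CPM in wild-type and 4790, 5000, 4160 and 5410 CPM in PGZ libraries (adjusted p = 0.0018, log2 fold change -1.64), and was not called in the fit of all groups (adjusted p = 0.095). Apoa4, a triglyceride-responsive apolipoprotein gene that lies close to Apoa1 on chromosome 9, rose from 58.6 to 1310 CPM (log2 fold change 4.48, adjusted p = 0.00036). Vldlr, a receptor for triglyceride-rich lipoproteins, was at 0.106, 0.433, 0.476 and 0.554 CPM in wild-type and 7.41, 16, 28.4 and 18.3 CPM in PGZ libraries (adjusted p = 5.3e-05). Pltp, the phospholipid transfer protein gene, went from 30.3 to 146 CPM.

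A list of hepatocyte identity genes, made of transcription factors and secreted liver proteins, had 12 of 20 lower (60%, against 14.6% of all genes) and 0 higher. Its median log2 fold change was -0.65. The 12 included the antitrypsin genes Serpina1a and Serpina1c, and Alb, Ttr, Trf and Apoa2, which encode other secreted proteins, were not called. With upper-quartile scaling 9 of the list were lower and 1 higher, and 7 were lower in the fit of all groups and without model_PGZ_408. Of 10 general hepatocyte markers 5 were lower and 0 higher, and 3 were lower in the fit of all groups. Onecut1, a factor of hepatocyte and bile duct development, was at 13.7, 11.1, 2.52 and 13.3 CPM in wild-type and 1.36, 1.59, 1.6 and 1.6 CPM in PGZ libraries (adjusted p = 0.0016). Foxa2 and Hnf4a, central factors of the hepatocyte programme, fell by 0.74 and 0.58 on the log2 scale. The call of Hnf4a (adjusted p = 0.026) was kept in 4 of 8 fits without a library and lost in the fit of all groups (adjusted p = 0.11). Albumin RNA (Alb) ranged from 19000 to 61200 CPM in wild-type and from 45000 to 56500 CPM in PGZ libraries (adjusted p = 0.69). Of 30 urea cycle and amino acid genes 8 fell and 1 rose (26.7% and 3.33%, against 14.6% and 15.0% of all genes). Cps1, the first enzyme of the urea cycle, went from 960 to 427 CPM. In the fit of all groups 2 of the 30 were lower, without model_PGZ_360 3, without normal_409 or model_PGZ_404 4, and without normal_376 and model_PGZ_328 together 14. The 13 mitochondrially encoded genes held 3 that fell (23.1%, against 14.6% of all genes) and 0 that rose. The count that fell was 6 without model_PGZ_328 and 1 without model_PGZ_404 or model_PGZ_408. It was 2 in the fit of all groups and with upper-quartile scaling. Of 35 nuclear genes of the respiratory chain 4 rose (11.4%, against 15.0% of all genes) and 0 fell. The count that rose was 12 without normal_376 and 7 with upper-quartile scaling. It was 2 in the fit of all groups and without model_PGZ_408, and 1 without model_PGZ_360 or model_PGZ_404.

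Interferon-stimulated genes were lower in 7 of 30 cases and higher in 2 (23.3% and 6.67%, against 14.6% and 15.0% of all genes). Their median log2 fold change was -0.42, and 4 were lower in the fit of all groups. Ifi27 was at 61.7 to 77.3 CPM in wild-type and 25.2 to 31 CPM in PGZ libraries (log2 fold change -1.36, adjusted p = 9.4e-05), and the ubiquitin-like modifier gene Isg15 fell from 12.1 to 5.38 CPM, with an adjusted p of 0.15 in the fit of all groups. Among 20 clock genes 3 rose and 5 fell (15% and 25%, against 15.0% and 14.6% of all genes). In the fit of all groups 1 rose and 2 fell, 2 fell without model_PGZ_360, and 3 fell without normal_346, normal_349, model_PGZ_404 or model_PGZ_408. Nr1d1, the repressor REV-ERB-alpha, fell from 301 to 77.7 CPM (log2 fold change -1.95, adjusted p = 0.00019), and the hour of sampling was not given in the sources used here. Endoplasmic reticulum stress genes were lower in 6 of 26 cases and higher in 2 (23.1% and 7.69%, against 14.6% and 15.0% of all genes). The lower count was 0 in the fit of all groups and 2 with upper-quartile scaling. It was 1 to 9 when a library was left out (1 without model_PGZ_404 or model_PGZ_408, 9 without normal_376). Xbp1 fell from 292 to 138 CPM, and the chaperone gene Dnajb9 rose from 10.1 to 22.8 CPM, neither of them called in the fit of all groups (adjusted p = 0.14 and 0.26).

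**Figure D4:**
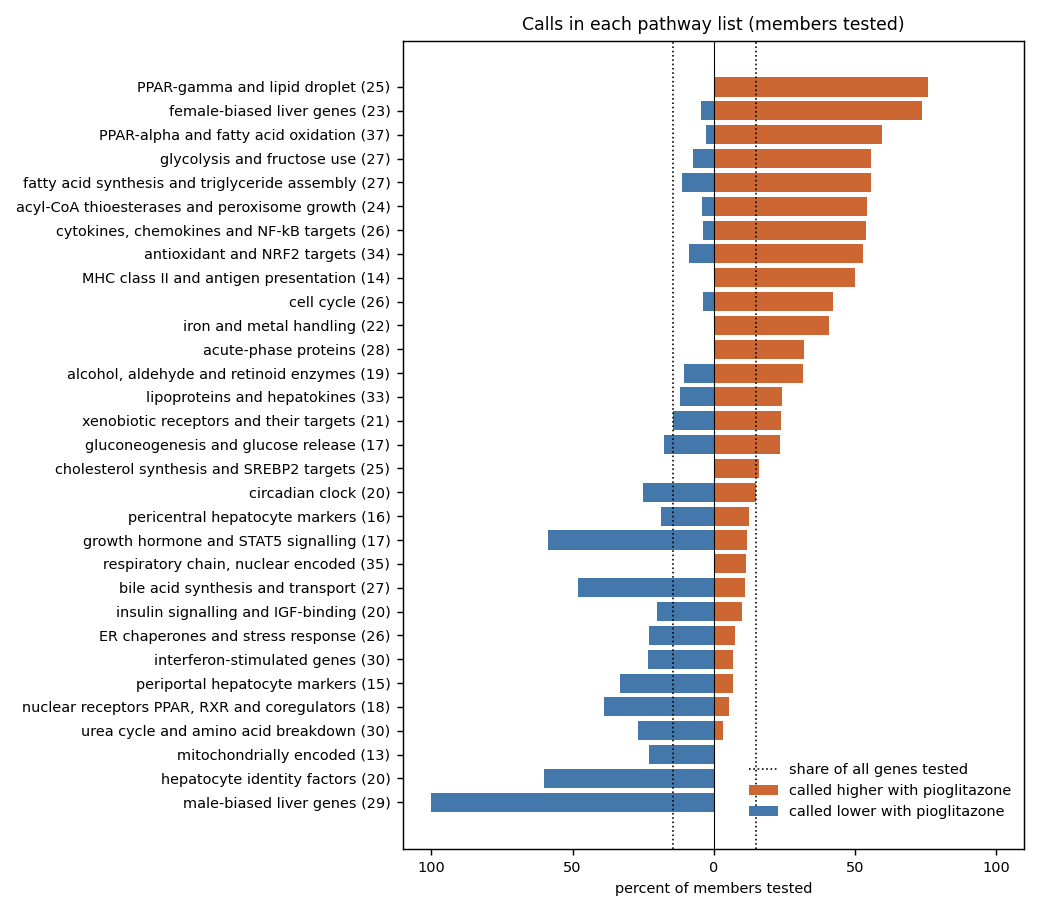
Share of the members tested that were called higher (orange, to the right) or lower (blue, to the left) with pioglitazone in each of the 31 pathway lists, with the number of members tested in brackets and dotted lines at the shares of all genes tested (15.0% and 14.6%). Lipid droplet, female-biased, oxidation, glycolysis and lipogenic genes lie well to the right, and male-biased, hepatocyte identity and growth hormone signalling genes to the left. The female-biased bar covers the 23 of 31 members that passed the filter, which keeps a gene that is high in either group, so it does not describe the whole list.

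Markers of macrophages, endothelium and matrix-producing cells were higher in PGZ libraries. In whole liver, more cells of a type and more RNA per cell cannot be told apart. Of 14 Kupffer cell markers 10 rose (71.4%, against 15.0% of all genes) and 0 fell (median log2 fold change 1.38), and 4 rose in the fit of all groups. Their summed level was 154 to 288 CPM in wild-type libraries, and every PGZ library lay above that range, the highest at 730 CPM. The complement gene C1qb was at 9.94, 11, 9.66 and 3.6 CPM in wild-type and 49.6, 42, 30.8 and 30.3 CPM in PGZ libraries (log2 fold change 2.15, adjusted p = 0.00079). Clec4f, the lectin that marks resident Kupffer cells, ranged from 37.1 to 133 CPM in wild-type and 45.9 to 155 CPM with PGZ (adjusted p = 0.82). Among 14 genes that mark lipid-associated or recruited macrophages, 10 rose (71.4%, against 15.0% of all genes) and 0 fell (median log2 fold change 2.17). In the fit of all groups 6 rose. The summed level of the list was 122 to 131 CPM in wild-type and 201 to 513 CPM in PGZ libraries. Gpnmb, a glycoprotein of lipid-laden macrophages, had 2 reads in wild-type libraries and was at 0.975, 32, 7.58 and 7.87 CPM with PGZ, a ratio of 467 with a 95% counting interval of 129 to 3860. Lgals3 (galectin-3), Cd63 (a lysosomal membrane protein) and Trem2 (a lipid-sensing receptor) rose by 4.67, 3.24 and 3.22 on the log2 scale, with Trem2 not called in the fit of all groups (adjusted p = 0.054). In these genes model_PGZ_360 was the highest and model_PGZ_328 the lowest PGZ library.

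Genes of MHC class II and antigen presentation, a list that also holds class I genes, rose in 7 of 14 cases (50%, against 15.0% of all genes). The class II gene H2-Aa led them, at 6.58 to 14.1 CPM in wild-type and 43.1 to 61.6 CPM in PGZ libraries (adjusted p = 6.6e-05). In the fit of all groups 1 of the 14 was called higher, close to the share of all genes there (968 higher of 15744). H2-Aa was not called in that fit (adjusted p = 0.057). Of 26 cytokine and NF-kB target genes 14 rose (53.8%, against 15.0% of all genes) and 1 fell, with 8 higher without normal_349 and 4 in the fit of all groups. The adhesion molecule gene Vcam1 was at 2.49 to 3.28 CPM in wild-type and 10.9 to 27.8 CPM with PGZ (log2 fold change 2.62, adjusted p = 0.00016), and Tgfb1 went from 4.04 to 14.5 CPM. Endothelial markers rose in 9 of 15 cases (60%, against 15.0% of all genes) and fell in 0, and 5 rose in the fit of all groups. Lyve1 went from 1.51 to 11.1 CPM and Vwf from 3.35 to 14.3 CPM, and Stab2, a scavenger receptor of sinusoidal endothelium, was at 53.5 and 57.3 CPM (adjusted p = 0.67).

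Stellate cell and matrix markers rose in 8 of 14 cases (57.1%, against 15.0% of all genes). The count was 13 without model_PGZ_328, 4 without normal_376 and in the fit of all groups, and 5 without normal_346, normal_409 or model_PGZ_360. Collagen genes were uneven among PGZ libraries: Col1a1 was at 6.33, 8.99, 1.57 and 4.02 CPM in wild-type and 1.95, 111, 22.4 and 40 CPM in PGZ libraries. The value in model_PGZ_328 lay among the wild-type values, and the gene was not called (adjusted p = 0.063). Col3a1 was at 13.8 to 23.5 CPM in wild-type and 20.5, 193, 67.6 and 76.6 CPM with PGZ (log2 fold change 2.29, adjusted p = 0.016). Dcn, which encodes decorin, rose from 36.3 to 111 CPM (adjusted p = 0.0037).

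Acute-phase RNA set model_PGZ_328 apart. Saa1, a serum amyloid A gene induced in inflammation, was at 23.4 to 132 CPM in wild-type libraries, at 4630 CPM in model_PGZ_328 and at 170, 74 and 280 CPM in the other PGZ libraries (adjusted p = 0.061). The near copy Saa2 was at 7330, 109, 55.4 and 244 CPM in PGZ libraries, and its call (adjusted p = 0.035) was kept in 4 of 8 fits without a library and lost in the fit of all groups (0.055). Lcn2, which encodes the iron-binding protein lipocalin-2, was at 6.91 to 16.2 CPM in wild-type and 1130, 193, 51.2 and 179 CPM in PGZ libraries, so that every PGZ library was higher (log2 fold change 5.0, and 3.53 without model_PGZ_328). Neutrophil genes were high in model_PGZ_328 too: S100a9 stood at 128 CPM there and at 2.29 to 8.03 CPM in the other PGZ libraries, and the granule gene Mpo at 40.5 CPM against at most 0.843 CPM. The summed level of the 13 neutrophil markers was 4.64 to 7.57 CPM in wild-type, 12.2 to 440 CPM in PGZ and 7 to 2450 CPM in saline-treated db/db libraries. Over the acute-phase list 9 of 28 genes rose (32.1%, against 15.0% of all genes) and 0 fell. In the fit of all groups 3 rose, and without normal_376 5. Without model_PGZ_328 8 rose and 3 fell. The part of neutrophil RNA in the other differences was not tested, and without that library 2360 genes were called higher and 2373 lower.

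**Figure D5:**
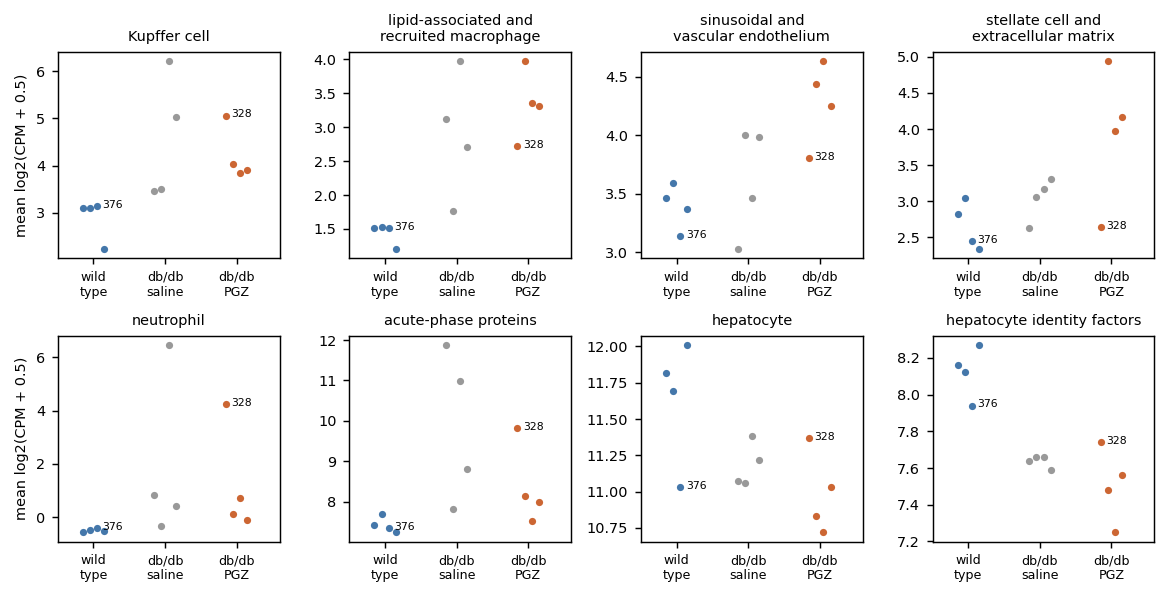
Mean log2(CPM + 0.5) of the members of 8 lists in each library of wild-type, saline-treated db/db and pioglitazone-treated db/db liver, with normal_376 and model_PGZ_328 marked by their numbers. Macrophage and endothelial lists lie above wild type in every pioglitazone library, and model_PGZ_328 is the highest pioglitazone library for the Kupffer cell, neutrophil and acute-phase lists and the lowest for matrix genes.

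Cell cycle genes rose in 11 of 26 cases (42.3%, against 15.0% of all genes) and fell in 1 (median log2 fold change 0.85), and 6 rose in the fit of all groups. The proliferation marker Mki67 was at 0.554 to 4.76 CPM in wild-type and 5.4 to 13.3 CPM in PGZ libraries (adjusted p = 0.014, and 0.18 in the fit of all groups), and Cdkn1a, the inhibitor p21, went from 0.765 to 11.9 CPM (adjusted p = 0.0019). Tk1, thymidine kinase 1, was the gene that fell (53.4 to 19 CPM). Of 22 iron and metal genes 9 rose (40.9%, against 15.0% of all genes) and 0 fell. In the fit of all groups 4 were higher, and without model_PGZ_328 7 were higher and 2 lower. Hamp2, a hepcidin gene with more RNA in female liver, went from 13.1 to 124 CPM (adjusted p = 0.098 in the fit of all groups), and Hamp, its close copy and the main iron hormone gene, was at 625 and 525 CPM (adjusted p = 0.61).

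Among the largest differences beyond these groups were genes absent from, or far lower in, wild-type or PGZ libraries. Serpina1e, an alpha-1-antitrypsin gene of a family of near copies, fell from 6910 to 39.4 CPM and Serpina4-ps1, a transcribed pseudogene, from 1060 to 6.12 CPM. Moxd1, a monooxygenase-like gene, was at 102 to 226 CPM in wild-type libraries and had reads with PGZ only in model_PGZ_328 (2.29 CPM). Rnase2a, C330002G04Rik and Gm12718 had no read in any PGZ library and means of 3.96, 3.31 and 2.45 CPM in wild type, so they were at least 118-fold, 98.5-fold and 73-fold lower against the floor over the PGZ group. In the other direction Ly6d, a surface protein gene of lymphoid and epithelial cells, rose from 0.184 to 134 CPM (log2 fold change 9.59, adjusted p = 1.8e-05), with 6.51 to 545 CPM in saline-treated db/db libraries. Chil1 and Chil3, chitinase-like genes, had no wild-type read and were highest in model_PGZ_328, at 30.4 and 10.2 CPM against at most 3.73 and 3.71 CPM in the other PGZ libraries.

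Levels in saline-treated db/db liver are set beside some of these differences. Both comparisons with saline-treated db/db libraries share samples with the comparison above, so values are given side by side and no overlap is counted as a result. Between PGZ and saline-treated db/db libraries 1 of 15111 genes was called (0.00662%), and between saline-treated db/db and wild-type libraries 226 of 14486 (1.56%). The saline-treated db/db libraries varied widely among themselves, with correlations of log2 CPM across genes of 0.864 to 0.973 against 0.956 to 0.984 among PGZ libraries. The gene called against saline was Sdcbp2, also called syntenin-2, a phosphoinositide-binding scaffold protein gene (chromosome 2, 151572622 to 151590005). It was at 0.0532, 0, 0.238 and 0 CPM in wild-type, 0.173 to 0.474 CPM in saline-treated db/db and 20.4, 43.5, 28.3 and 18.9 CPM in PGZ libraries. Every PGZ library was above all wild-type libraries (log2 fold change 8.31, SE 0.56, adjusted p = 1.2e-05), and its log2 difference from saline-treated db/db was 6.17 (SE 0.42, adjusted p = 0.0025).

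The promoters of 2 genes are shown, that of Sdcbp2 because it was the gene called against saline and that of Slco1a1 because it had the smallest adjusted p among the lower genes. They are the 250 bases before the start of each gene in RefSeq (GRCm38.p6), Sdcbp2 at chr2:151572373-151572622 on the plus strand and Slco1a1 at chr6:141946963-141947212 on the minus strand, 5′ to 3′, with AGGTCA on either strand, the core motif that PPAR and RXR read as repeats, in capitals:
Sdcbp2: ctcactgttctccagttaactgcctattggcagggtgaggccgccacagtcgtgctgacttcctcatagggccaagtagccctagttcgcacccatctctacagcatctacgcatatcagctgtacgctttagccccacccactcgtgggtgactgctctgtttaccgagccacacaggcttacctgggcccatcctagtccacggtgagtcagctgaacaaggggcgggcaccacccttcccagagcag
Slco1a1: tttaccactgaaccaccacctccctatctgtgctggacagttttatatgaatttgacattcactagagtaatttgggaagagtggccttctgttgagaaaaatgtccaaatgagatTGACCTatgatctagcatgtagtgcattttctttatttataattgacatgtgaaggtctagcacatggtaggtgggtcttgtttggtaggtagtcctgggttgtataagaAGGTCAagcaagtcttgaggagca
The Sdcbp2 window holds no such motif and the Slco1a1 window holds 2. Among the 32851 RefSeq promoters searched, 14% held at least 1 in these 250 bases, as did 13% of 2113 promoters of genes called higher and 10.9% of 2082 of genes called lower. The share was 28.1% of 32 promoters of lipid droplet and PPAR-gamma genes and 21.1% of 19 promoters of the male-biased list. A match of these letters is a description of the sequence.

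Several other genes lay farther from wild type with PGZ than with saline, and those given here were picked for that order. Fasn was at 291 CPM in wild type, 271 CPM with saline and 762 CPM with PGZ. Fabp4 was at 7.89, 16 and 93.8 CPM, Plin4 at 9.48, 37.3 and 243 CPM, and Abcd2 at 0.48, 2.79 and 18 CPM in the same order. Mgst3, a microsomal glutathione transferase gene, was at 12.2, 24.8 and 150 CPM, and Gpd1 at 154, 194 and 529 CPM. Acmsd, which diverts tryptophan breakdown away from NAD, was at 12, 13.5 and 4.72 CPM, the lowest with PGZ. Apol9b, an interferon-responsive apolipoprotein L gene, fell from 201 CPM in wild type to 43 CPM with PGZ and was at 107 to 208 CPM in saline-treated db/db libraries. None of these genes was called between PGZ and saline.

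The rule for passing wild type required a call in PGZ against wild type and in both comparisons with saline, and 0 genes met it. In Vegfb the libraries lay below wild type with saline and above it with PGZ. This growth factor gene, linked to fatty acid transport in endothelium, was at 16.8 CPM in wild type, 11.7 CPM with saline and 24.5 CPM with PGZ (adjusted p = 0.01 against wild type, and 0.18 in the fit of all groups). Vegfb was not called between saline-treated db/db and wild type (adjusted p = 0.17) or between PGZ and saline (adjusted p = 0.2). No gene called lower with PGZ lay above wild type in all saline-treated db/db libraries. Csad, the taurine synthesis enzyme gene, was at 42.1 CPM in wild type, 10.4 to 30.3 CPM with saline and 86.5 CPM with PGZ (adjusted p = 0.0086 against wild type, and 0.12 in the fit of all groups), with a single saline value inside the wild-type range. It was not called between saline-treated db/db and wild type (adjusted p = 0.11) or between PGZ and saline (adjusted p = 0.23).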

How the data were processed

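The labels describe 5 groups of 4 mice, 20 liver samples in all. The white tea extract group (WTE) had 4 columns without any value and was not analysed here. Groups came from the labels alone. RNA was extracted with TRIzol, treated with DNase and sequenced by standard Illumina protocols, per the labels. The authors deposited a table of raw read counts, 1 row for each Ensembl gene, with no normalization. The submitters' processing notes name GRCm38, HISAT2 2.1.0, DESeq2 1.28.0, StringTie 1.3.3b, FastQC 0.11.5 and CASAVA 1.8.2, without their roles. How strand and multiply matching reads were handled is not given in the sources used here, so counts of near-identical copies, overlapping genes and antisense partners are uncertain. GENCODE M21 (GRCm38) gave symbols for 45229 of 46078 genes (98.2%), and unmatched genes held 0.064% of reads.

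Counts of the 8 libraries were filtered with filterByExpr, scaled by TMM and fitted with robust glmQLFit and glmQLFTest in edgeR 4.0.16 (R 4.3.3, limma 3.58.1). Tests are two-sided, adjusted over all 14739 genes and called at an adjusted p under 0.05. Levels written as a pair are means over 4 libraries, wild type first. Folds against a group with no read are set against 3 counts summed over that group, and ratios against 1 to 3 reads carry an exact 95% counting interval. Intervals and floors cover counting error only. No pair of libraries within a group agreed within sampling noise. The fit was tested on simulated counts of the same design.

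The members, the 44 gene lists (930 of 934 entries in the table) and the tests were chosen with earlier results of these data known. Lists are described by counts and medians only. Genes were named by a rule: the 12 higher and 12 lower with the largest fold change among called genes without overlap and with at least 1 CPM, in each list up to 3 called members by smallest p, genes called on both sides of the saline group, Pparg and Lepr, with leave to omit some. All other named genes were chosen after their values were seen. Several genes of these lists are not reported here, by name or in the plots of single genes, and remain in the counts. Alternatives were RLE and upper-quartile scaling, no filter, a stricter filter (1 CPM in 4 libraries and 200 reads), all groups in the fit, limma voom with quality weights, DESeq2 1.42.0, a fold of at least 1.5 (glmTreat), and each library left out. Leaving out normal_376 and model_PGZ_328 together was added after the data were seen.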

Additional observations from a re-analysis of the deposited data

Results flagged for a closer look

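Samples far from the other 3 libraries of their group were sought in 362 groups of 4 values, and 32 (8.8%) held a library whose gap to its nearest neighbour exceeded Dixon's 95% critical value as a share of the group's range. For values not chosen beforehand chance gives about 5%. Many of the genes checked were named after their values were seen, and lists share genes with them. The 8.8% therefore cannot be compared with 5%.

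In wild-type liver 15 of them concerned normal_376. It was the lowest library for Plin2 (72.7 CPM, the others 151 to 163), Ehhadh (27.8, the others 75 to 84.9), Igfals (77.5, the others 181 to 214), Socs2 (26.8, the others 80 to 95.5) and Onecut1 (2.52, the others 11.1 to 13.7). It was also the lowest for the male-biased genes Hsd3b5 (82.8 CPM) and Cyp7b1 (118 CPM), for Sult1e1 (0.0476 CPM, fewer than 3 reads), Cyp3a11 (104 CPM), Gpx4 (119 CPM) and Cps1 (442 CPM). It was the highest for Acaca (101 CPM, the others 62.2 to 66.2) and Lpin1 (69.8, the others 24 to 28.5). Its mean log2(CPM + 0.5) was 5.51 over antioxidant genes and 5.83 over nuclear respiratory chain genes, against 6.08 to 6.18 and 6.97 to 7.18 in the other wild-type libraries. Without normal_376 the comparison called 2376 genes higher and 2207 lower.

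The library normal_409 was the lowest for C1qb (3.6 CPM) and Gpat3 (1.11 CPM), and its mean levels of Kupffer cell and lipid-associated macrophage markers were 2.24 and 1.21 against 3.1 to 3.14 and 1.51 to 1.53 in the others. In normal_349 Cfd was high (7.69 CPM) and S100a9 low (0.325 CPM).

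Among PGZ libraries model_PGZ_328 was the lowest for Cidec (69.8 CPM, the others 197 to 240), Cd36 (130, the others 235 to 251), Gpd1 (331, the others 569 to 617), Csad (51.2, the others 94.7 to 102), Acadm (298, the others 413 to 439) and Onecut1 (1.36 CPM). It was the highest for Rxra (235 CPM, the others 194 to 199), it alone held Moxd1 reads (2.29 CPM), and its mean level of Kupffer cell markers was 5.06 against 3.85 to 4.04. In model_PGZ_404 Lepr was high (7.94 CPM) and Cyp1a2 low (184 CPM).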

How the results depend on the processing

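With all groups in the fit 968 genes were called higher and 958 lower, and 1861 of the 4363 calls were kept in the same direction. The wider spread of the saline-treated and extract-treated db/db libraries enters that fit. With a fold of at least 1.5 required (glmTreat) 880 were higher and 493 lower. Under every other scaling, filter and tool, and without normal_376 and model_PGZ_328 together, both counts stayed within 1.5 times the reported ones. Upper-quartile scaling moved the median of all genes to 0.11 and the share of calls that were higher to 61.8%, from 50.8%. Leaving out each library gave 1521 to 2376 higher and 1283 to 2373 lower genes. The lower count fell to 1283 without model_PGZ_360 and to 1308 without model_PGZ_404, and was 2373 without model_PGZ_328. All fits without a library hold equally many samples, and the cause of these shifts was not tested. In all 8 of these fits 1312 higher and 1121 lower genes were called. Of 198 called genes followed by name, 171 were called in all 8, 153 with all groups in the fit and 153 with glmTreat.

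Direction turned only for 5 genes that were not called. With each library left out in turn, the log2 fold change ranged from -0.02 to 0.14 for Dgat2 (-0.01 without a filter), from -0.2 to 1.04 for G6pc, from -0.56 to 0.08 for Cyp7a1, from -0.03 to 0.44 for Alb and from -0.35 to 0.6 for Clec4f. The highest G6pc value, without normal_409, was called. The cause was not tested. No paired analysis was possible because the replicate numbers of the labels are animal numbers that no wild-type and PGZ library share. Genotype, strain background and drug cannot be told apart, and with 4 libraries a group small changes are easily missed.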
